A study of Mus musculus with 3 samples.

Results

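The 10 genes described here, Postn, Fn1, Tnc, Tgfbi, Cthrc1, Sparc, Lox, Thbs1, Fstl1 and Vcan, encode secreted proteins of the extracellular matrix that are known from activated fibroblasts. They were taken by symbol from a fixed list that was chosen with earlier results of these data known. All 10 were found among the 32285 mouse genes of the files, and counts of them set beside all genes are descriptions. Their levels in tissue sections, the share of spots in which they were detected and their placement relative to Col1a1 and Ankrd1 were measured in spatial transcriptome (Visium) libraries of mouse heart. A Visium spot captures RNA from the patch of tissue lying on it, which may contain cells of several types.

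There were 3 sections, 1 per condition, from C57BL/6 mice that were 8 weeks old when supplied. The sham mouse received vehicle by gavage for 7 days and then an operation in which a needle was passed without tying the vessel. The I/R mouse received the same vehicle for 7 days and then 30 min of ligation of the left anterior descending coronary artery (LAD) and 24 h of reperfusion. The SBP mouse had the same ischemia and reperfusion after 7 days of gavage with a solution of MUSKARDIA (Shexiang Baoxin Pill, SBP, a pill of traditional Chinese medicine). As every condition has just 1 section, no replicate error and no test can be given, so every interval given (95%) covers counting error only, and the condition, the mouse and the plane of the section cannot be told apart.

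Fibroblasts that respond to injury secrete a provisional matrix of fibronectin and of matricellular proteins, which signal to cells through integrins and other receptors and bear less load than collagen fibres do. Periostin, tenascin-C and Cthrc1 are known as proteins of the activated or scar-forming fibroblast, whereas fibronectin, the TGF-β-induced protein, thrombospondin-1 and versican are also made by macrophages, platelets, vessels or other cells. Col1a1, a chain of type I collagen, served as a reference for fibroblasts and Ankrd1, a stretch-responsive gene of the sarcomere, as a reference for stressed cardiomyocytes.

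The sections held 2237 (sham), 2083 (I/R) and 1962 (SBP) spots, of which 3, 1 and 2 had fewer than 200 detected genes and were not used. Total counts of unique molecular identifiers (UMIs) were 25118258, 30238530 and 21631280 in that order, and the median spot of I/R held 14672 UMIs against 10645 in sham and 10652.5 in SBP. Barcodes come from a fixed set printed on each slide, and 1207 to 1568 of them occurred in both sections of a pair. Markers of cardiomyocytes (Ttn, Pln, Myh6 and Tnnt2) summed to between 10582.5 and 13383.7 CPM (a gene's UMIs scaled to a section total of 1000000) and all 7 fibroblast markers were detected, as a heart section should hold, while the 5 epicardial markers together stayed at or below 2.59 CPM. The 3 valve markers summed to 9.32, 5.56 and 13.3 CPM in sham, I/R and SBP. Nearly all of this sum was Cytl1, with 231, 165 and 283 UMIs, while Fmod had 3, 3 and 5 UMIs and Hapln1 had 0 in each section. The log2 ratio of the sum for SBP over I/R was 1.26 (0.98 to 1.54), so the sections were not alike in Cytl1.

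The promoters of Postn, Tnc and Tgfbi are shown (RefSeq, GRCm38.p6, 250 bases before to 50 bases after the start of the transcript), since these were the genes with an entry in the promoter table among those at least 2-fold higher in I/R than in sham. The table held entries for 6 of the 10 genes. In GRCm38 with GENCODE M21 annotation, Postn spans chr3:54361109-54391037 on the plus strand, Tnc chr4:63959785-64047015 on the minus strand, Tgfbi chr13:56609523-56639562 on the plus strand and Fn1 chr1:71585520-71653200 on the minus strand. Capitals mark TATAAA and GGGCGG, searched on both strands, where GGGCGG on the other strand reads CCGCCC. The Postn window is chr3:54360857-54361156 on the plus strand, that of Tnc chr4:64046966-64047265 on the minus strand and that of Tgfbi chr13:56609336-56609635 on the plus strand.
Postn: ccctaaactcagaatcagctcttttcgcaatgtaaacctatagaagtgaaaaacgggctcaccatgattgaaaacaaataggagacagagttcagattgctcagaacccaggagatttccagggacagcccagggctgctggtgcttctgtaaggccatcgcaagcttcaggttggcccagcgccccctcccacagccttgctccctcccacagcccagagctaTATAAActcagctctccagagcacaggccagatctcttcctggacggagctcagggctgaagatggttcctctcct
Tnc: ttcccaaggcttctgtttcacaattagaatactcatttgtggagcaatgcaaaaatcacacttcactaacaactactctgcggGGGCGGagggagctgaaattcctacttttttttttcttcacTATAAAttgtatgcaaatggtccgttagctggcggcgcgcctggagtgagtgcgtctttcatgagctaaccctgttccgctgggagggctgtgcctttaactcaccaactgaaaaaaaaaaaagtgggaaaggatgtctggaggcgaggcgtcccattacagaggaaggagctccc
Tgfbi: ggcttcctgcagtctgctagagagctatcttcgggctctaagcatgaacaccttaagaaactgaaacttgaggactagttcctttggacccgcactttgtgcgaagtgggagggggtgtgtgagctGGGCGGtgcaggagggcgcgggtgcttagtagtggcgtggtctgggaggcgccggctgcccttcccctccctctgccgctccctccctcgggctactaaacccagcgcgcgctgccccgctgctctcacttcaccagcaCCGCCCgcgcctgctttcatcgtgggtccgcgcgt
TATAAA lay 26 to 21 bases before the start in Postn and 126 to 121 bases before it in Tnc, and was found in 13.6% of the 32851 promoters of the table. GGGCGG occurred once in Tnc and 2 times in Tgfbi, and in 35.7% of all promoters. Neither TGANTCA, the AP-1 motif, nor GGAATG, a TEAD motif, was in a window of the 6 genes, and 7.81% and 14.7% of all promoters held them. These matches describe the letters of the windows and no factor's binding was measured.

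In I/R all 10 genes were at a higher level than in sham, by 1.24-fold for Fstl1 up to 8.05-fold for Tnc (log2 ratio 3.01, and 3.73 without its richest 1% of spots), while Col1a1 was slightly lower. Those richest spots held 49.1% of the Tnc UMIs in sham and 16.3% in I/R. Leaving them out takes more from sham, so the 3.73 is no independent check. Of the 10 genes, 5 (Tnc, Tgfbi, Thbs1, Fn1 and Postn) were at least 2-fold higher, against 8.38% of the 12231 genes with at least 50 UMIs in these 2 sections. The median log2 ratio of the 10 genes was 1.09, beside 0.24 over all genes, of which 71.2% were higher in I/R. In bulk sums of a section, more cells of a type and more RNA per cell cannot be told apart.

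The provisional matrix glycoproteins came first. Tnc (tenascin-C, a matricellular protein scarce in healthy adult myocardium) was at 6.41, 51.6 and 15.6 CPM in the sham, I/R and SBP sections, on 161, 1560 and 338 UMIs. The I/R section was the highest by far and SBP lay between the other two, with a log2 ratio of 3.01 (2.77 to 3.25) for I/R over sham. Fn1 (fibronectin, the main adhesive protein of the provisional matrix) was at 50.4, 229 and 94.2 CPM in sham, I/R and SBP. It had 6938 UMIs in I/R, so that its log2 ratio of 2.19 was narrow (2.10 to 2.27). Tgfbi, whose product binds collagens and integrins, followed the same order at 28.5, 153 and 72.6 CPM.

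Among the matricellular regulators, Thbs1 (thrombospondin-1, which activates latent TGF-β) was at 8.04, 41.8 and 12.2 CPM across the same sections. Its log2 ratio for I/R over sham was 2.38 (2.16 to 2.60), close to the 2.42 (2.31 to 2.54) of Tgfbi, and these intervals overlap. Postn (periostin, a marker of activated fibroblasts) was at 27.9, 66.3 and 24.0 CPM, which gave a log2 ratio of 1.25 (1.13 to 1.38). Unlike the 4 genes above, Postn in SBP lay below sham, by a log2 ratio of -0.22 (-0.38 to -0.05). Vcan (versican, a proteoglycan that binds hyaluronan) was at 12.6, 23.9 and 15.4 CPM and stayed just under 2-fold in I/R, at 0.93 (0.74 to 1.12).

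The genes that act on collagen or that resting tissue already holds differed less. Sparc, a collagen-binding protein, was detected on the most UMIs of the 10, at 384, 525 and 391 CPM, and its log2 ratio of 0.45 (0.42 to 0.49) was small but precise. Fstl1, a secreted glycoprotein of the follistatin family, was at 55.3, 68.9 and 44.8 CPM, and its log2 ratio for I/R over sham of 0.32 (0.22 to 0.41) went down to 0.08 with median-of-ratios scaling. Lox (lysyl oxidase, which crosslinks collagen and elastin) was at 9.83, 15.9 and 6.84 CPM, with a log2 ratio for I/R over sham of 0.70 (0.47 to 0.92). Cthrc1, which marks scar-forming fibroblasts, rested on only 46, 88 and 22 UMIs, that is 1.83, 2.91 and 1.02 CPM. Its log2 ratio of 0.67 had an interval of 0.14 to 1.22 and went to 1.68 without its richest 1% of spots, so the size of the difference was poorly fixed at this depth. Those spots held 69.6% of the Cthrc1 UMIs in sham and 38.6% in I/R, so leaving them out lowers sham more. Col1a1 itself stood at 171, 156 and 109 CPM, so the matrix genes were higher in I/R beside a collagen gene that was not.

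**Figure D1:**
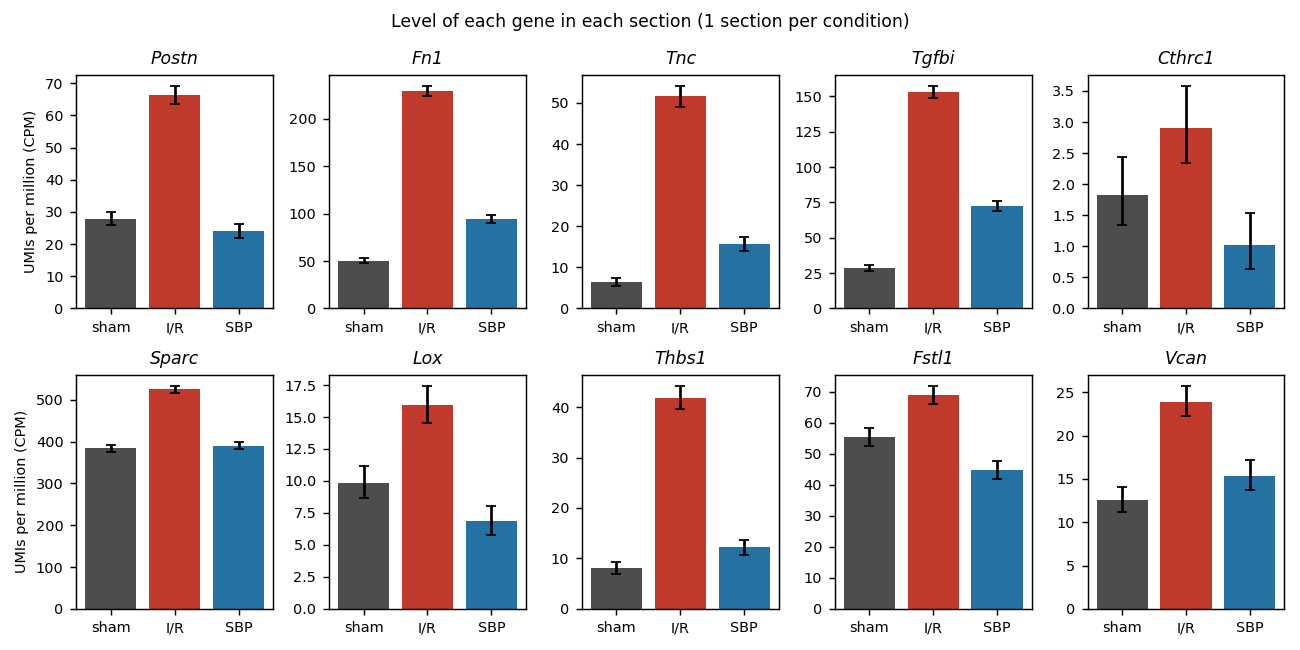
Level of each of the 10 genes in CPM (vertical axis, each panel with its own scale from 0) in the sham, I/R and SBP sections, with bars for 1 section each and error bars for the 95% Poisson interval of the UMI sum. The I/R bar is the highest in all 10 panels, and SBP stands above sham for Tnc, Tgfbi, Fn1, Thbs1 and Vcan and below it for Postn, Fstl1, Lox and Cthrc1.

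All 10 genes stood lower in SBP than they did in I/R, 7 of them at least 2-fold, against 4.53% of the 12151 genes compared. The median log2 ratio was -1.25, beside -0.17 over all genes, of which only 30.2% were higher in SBP than in I/R. This comparison shares its I/R section with the one above, so that a high value in that 1 section raises one ratio and lowers the other, and the 2 sets of ratios are not independent. Thbs1 (-1.78, -1.98 to -1.59) and Tnc (-1.72, -1.90 to -1.55) had the lowest ratios, then Cthrc1 (-1.52, -2.26 to -0.83) and Postn (-1.47, -1.61 to -1.33). Fn1 followed at -1.28 (-1.36 to -1.21), Lox at -1.22 (-1.50 to -0.95) and Tgfbi at -1.08 (-1.16 to -0.99), whose interval reached just inside 2-fold. Vcan, Fstl1 and Sparc were lower by less than 2-fold, at -0.64, -0.62 and -0.43, and Col1a1 at -0.52 lay among these. With TMM or median-of-ratios scaling, Tgfbi no longer passed 2-fold and 6 of the 10 genes did.

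For SBP compared with sham the ratios lay on both sides of 0. Tgfbi (1.35, 1.22 to 1.48) and Tnc (1.29, 1.01 to 1.57) were at least 2-fold higher in SBP, 2 of the 10 genes against 1.48% of 11768 genes. Fn1 (0.90) and Thbs1 (0.60) were higher with intervals above 0. Vcan (0.29, 0.06 to 0.52) was too, but by less at the lower bound than the shift of -0.07 that TMM scaling brings, which puts that bound below 0. Sparc did not differ beyond counting error (0.02, -0.02 to 0.07). Postn, Fstl1 (-0.30), Lox (-0.52) and Cthrc1 (-0.85, -1.65 to -0.09) were lower in SBP than in sham. The members with an interval above 0 were thus Tgfbi, Tnc, Fn1, Thbs1 and, without TMM scaling, Vcan. With Sparc, 6 of the 10 genes had a ratio above 0, near the share over all genes, of which 62.7% were higher in SBP than in sham. The median over the 10 genes was 0.16, beside 0.08 over all genes.

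**Figure D2:**
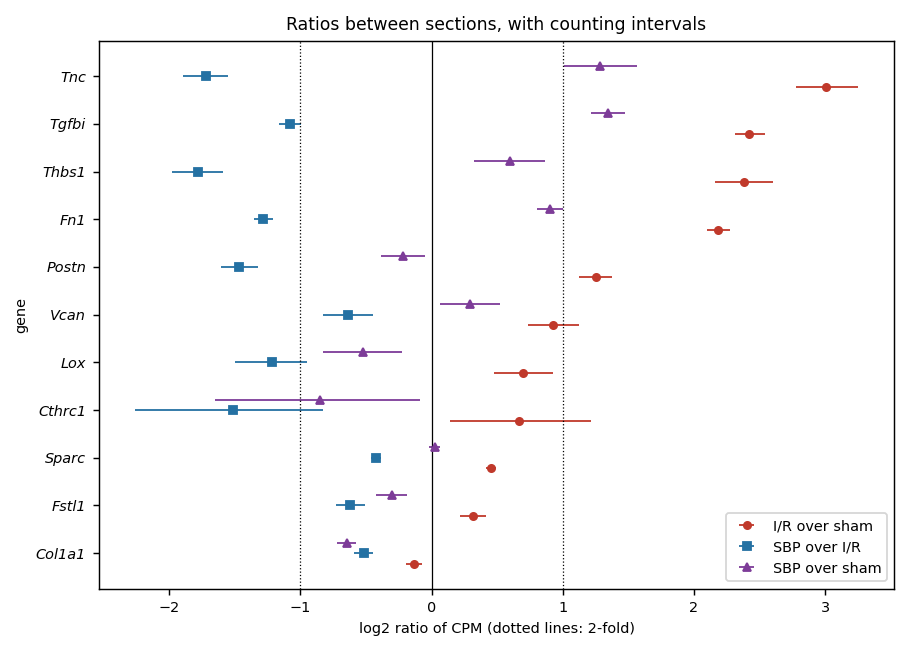
Log2 ratio of CPM (horizontal axis) for each of the 10 genes and Col1a1 (vertical axis), with circles for I/R over sham, squares for SBP over I/R, triangles for SBP over sham, horizontal lines for the 95% counting interval and dotted lines at 2-fold. All 10 circles lie above 0 and all 10 squares below it, while the triangles lie on both sides, from -0.85 for Cthrc1 to 1.35 for Tgfbi.

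The share of spots in which a gene was detected followed the levels. Because a deeper spot shows more genes, each spot was thinned to 6500 UMIs, which left 2102 sham, 1880 I/R and 1747 SBP spots and set aside 132, 202 and 213 shallower ones. The share was highest in I/R for all 10 genes, as it was for 60.2% of 12659 genes. Tnc had a UMI in 2.76% (2.10 to 3.55) of sham spots, and this share was 18.2% (16.5 to 20.0) for I/R and 7.33% (6.15 to 8.65) for SBP. Without thinning these shares were 4.48%, 30.6% and 11.6%.

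Fn1 was detected in 18.9%, 44.1% and 25.9% of thinned spots of sham, I/R and SBP, and in 28.2%, 63.7% and 37.4% of unthinned ones. Tgfbi was detected in 12.1%, 31.9% and 23.0% of thinned spots (18.9%, 51.1% and 32.6% unthinned). For both genes I/R spots also held more UMIs each, since 23.2% of I/R spots had at least 2 UMIs of Fn1 after thinning against 4.52% in sham. Thbs1 was detected in 3.76%, 15.7% and 4.24% of thinned spots (6.22%, 27.0% and 8.21% unthinned), so that SBP and sham overlapped within their intervals (3.34 to 5.29 and 2.99 to 4.66).

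Postn was found in 12.3%, 25.7% and 11.0% of thinned spots (18.7%, 39.7% and 16.9% unthinned). Sparc was nearly ubiquitous, in 85.0%, 89.0% and 83.1% of spots. Shares of Fstl1 (25.6%, 33.2% and 22.0%), Vcan (6.85%, 11.5% and 7.73%) and Lox (4.61%, 8.35% and 3.95%) were also highest in I/R with intervals apart from the other sections. Cthrc1 was an exception, at 0.999%, 1.33% and 0.515% of spots, where the intervals of I/R (0.86 to 1.96) and of sham (0.62 to 1.52) overlapped. Col1a1 was detected in 49.8%, 47.9% and 40.8% of thinned spots. The share of spots with the cardiomyocyte gene Ankrd1, for comparison, was 89.3%, 94.1% and 90.6%.

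**Figure D3:**
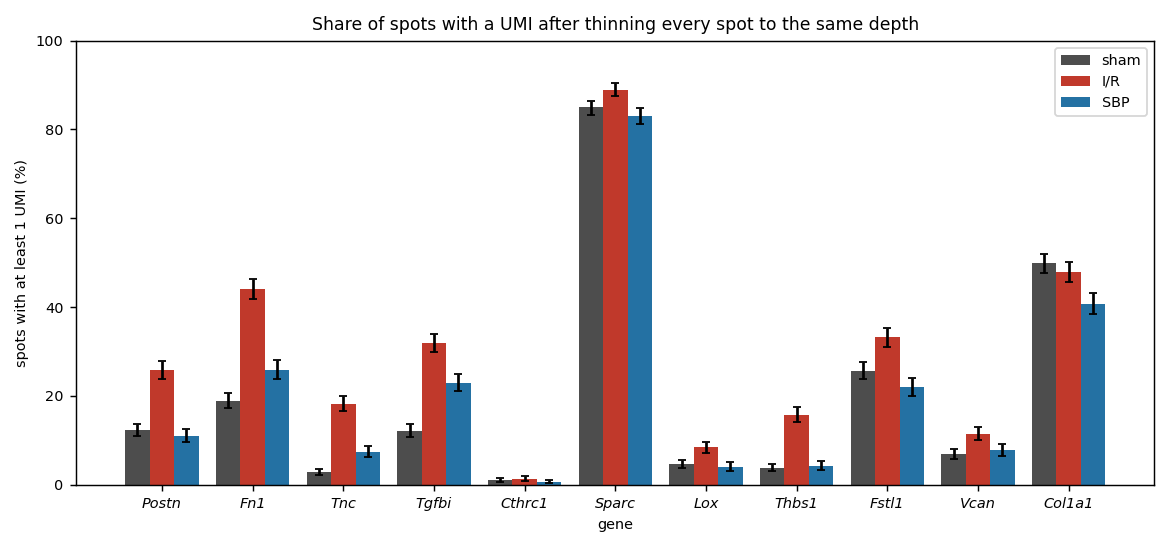
Percentage of spots with at least 1 UMI (vertical axis, from 0 to 100) for the 10 genes and Col1a1 after every spot was thinned to 6500 UMIs, with 1 bar each for sham, I/R and SBP and error bars for the exact binomial 95% interval. The I/R bar is the highest for each of the 10 genes but not for Col1a1, and the bars of Cthrc1 stay at or below 1.33%.

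Part of these levels came from few spots. The richest 1% of spots (20 to 23 per section) held 49.1%, 16.3% and 25.4% of the Tnc UMIs in the sham, I/R and SBP sections, and 36.1%, 17.5% and 38.8% of those of Thbs1. For Sparc they held 5.96% to 6.34%, and for Cthrc1 69.6%, 38.6% and, in SBP, 100%. No single spot held more than 18 UMIs of Tnc or Thbs1.

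The spots set aside as shallow were not poor in these genes. In I/R, Tgfbi stood at 807 CPM over the 202 shallow spots against 133 CPM in the deeper ones, Fn1 at 920 against 208 CPM and Thbs1 at 215 against 36.5 CPM. Postn differed less, with 107 against 65.0 CPM, and Fstl1 stood at 87.3 against 68.3 CPM. In SBP the same 3 genes stood apart, with log2 ratios of shallow over deeper spots of 2.19 for Tgfbi, 1.99 for Fn1 and 2.55 for Thbs1, whereas Postn was at 0.04 (-0.61 to 0.63). The thinned shares, the spot correlations and all classes of spots leave these spots out.

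The spatial question was whether these genes lie with Col1a1 or with Ankrd1. Across the 1880 thinned I/R spots, the Spearman correlation with Col1a1 was highest for Sparc (0.31), then Tnc (0.27), Fn1 (0.24), Postn (0.23), Tgfbi (0.23) and Thbs1 (0.21), and was 0.19 for Fstl1, 0.17 for Lox, 0.12 for Vcan and 0.10 for Cthrc1. With Ankrd1 it was 0.42 for Sparc, 0.36 for Fn1, 0.31 for Postn and for Tnc, 0.30 for Tgfbi and 0.23 for Fstl1. Over 4676 genes the median correlation was 0.06 with both references, and the 95th percentile was 0.19 with Col1a1 and 0.27 with Ankrd1. Spots of 1 section share a library and Col1a1 and Ankrd1 themselves correlated at 0.24 in I/R, so these values describe the section and carry no test.

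In I/R 4 of the 10 genes (Cthrc1, Lox, Thbs1 and Vcan) correlated more with Col1a1 than with Ankrd1, as did 4 in sham and 2 in SBP. This count was not stable, since a second random draw of the thinning gave 2 in I/R and 7 in sham, and a Pearson correlation of log2 values gave 8 in both. No order between the references is therefore read from it. In SBP the correlations with Ankrd1 were 0.38 for Sparc, 0.29 for Tgfbi and for Fn1 and 0.25 for Tnc, beside 0.23, 0.09, 0.14 and 0.09 with Col1a1. Over 3954 genes in SBP the 95th percentile was 0.24 with Ankrd1 and 0.12 with Col1a1. The 2 references thus have backgrounds of unlike width, and no order is read from these values either. In sham the highest correlation with either reference was that of Sparc, 0.25.

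Levels were also compared between classes of spots. A spot was called high for a reference when its thinned count reached 5 UMIs for Col1a1 or 19 for Ankrd1, the lowest numbers met by no more than 5% of sham spots. In I/R 1.86% of thinned spots (35) were high for Col1a1 alone, 20.6% (388) for Ankrd1 alone and 0.90% (17) for both. All 10 genes were higher in the Col1a1-high spots than in spots high for neither, with a median log2 ratio of 2.55 and every interval above 0. Of all genes 42.5% had such an interval, and their median was 0.78. The 10 genes were also higher in Ankrd1-high spots, with a median of 0.62 and every interval above 0, against 42.1% of all genes and a median of 0.29.

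Postn showed the range of these classes, with 42.8 CPM in spots high for neither, 98.2 CPM in Ankrd1-high, 293 CPM in Col1a1-high and 461 CPM in spots high for both. Lox stood at 10.4, 19.7, 114 and 94.1 CPM in the same order. Tgfbi stood at 122, 145, 409 and 169 CPM, so that Ankrd1-high spots differed little from the rest (log2 ratio 0.25, 0.14 to 0.36). The Col1a1-high spots, however, were so few that they held 5.69% of the Tgfbi UMIs and 13.7% of the Lox UMIs, and for Tgfbi 67.3% of UMIs lay in spots high for neither gene. These percentages are of the UMIs in the 1880 spots deep enough for thinning. The 202 shallower spots, which are in no class, held a further 730 UMIs of Tgfbi. Within spots high for neither, all 10 genes were higher in I/R than in sham (median 0.92) and lower in SBP than in I/R (median -1.09), each with an interval apart from 0. Over all genes in these spots 37.4% had an interval above 0 in the first comparison and 27.4% one below 0 in the second, with medians of 0.15 and -0.10.

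Because several of these proteins are known from blood-borne cells, the genes were also set beside summed marker lists. In the whole sections the monocyte markers (Ccr2, Cd14, Plac8, Ly6c2 and Chil3) summed to 27.2, 129 and 61.9 CPM in the sham, I/R and SBP sections, all 5 of them at least 2-fold higher in I/R than in sham. Neutrophil markers stood at 27.2, 236 and 115 CPM, macrophage markers at 584, 1097 and 642 CPM and platelet markers at 65.8, 149 and 71.9 CPM. The fibroblast markers (Dcn, Fbln1, Col1a2, Col3a1, Pdgfra, Lum and Tcf21) stood at 966, 912 and 758 CPM, with 1 of 7, Pdgfra, at least 2-fold higher in I/R. These 7 did not move together. For I/R over sham Pdgfra was at 1.20, Tcf21 at 0.38, Col3a1, Lum and Col1a2 at 0.06 to 0.12, Dcn at -0.35 and Fbln1 at -0.92. For SBP over I/R Fbln1 was at 0.59, Dcn at 0.11, Lum at 0.02, Tcf21 at -0.44, Col1a2 at -0.48, Pdgfra at -0.51 and Col3a1 at -0.83. Endothelial markers were at 240, 272 and 240 CPM and those of smooth muscle and pericytes at 357, 290 and 306 CPM. The platelet sum was mostly Pf4, at 63.3, 142 and 68.6 CPM. For I/R over sham Ppbp was at 2.48 and Itga2b at 0.30 (-0.44 to 1.06), while Gp9 and Gp1bb had at most 10 UMIs in a section. Of the macrophage sum Lyz2 held 283, 695 and 346 CPM, and the 6 macrophage genes ran from 0.18 (C1qa) to 1.43 (Cd68) for I/R over sham. The sums of leukocytes and platelets were, like the matrix genes, highest in I/R, and their part in the differences was not tested.

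Fn1 and Tgfbi followed the leukocyte markers across I/R spots. Their correlation with the monocyte sum was 0.53 and 0.55, with macrophages 0.53 and 0.54 and with neutrophils 0.54 and 0.53, against 0.14 and 0.13 with the fibroblast sum. Thbs1 behaved likewise, at 0.41 with monocytes and 0.12 with fibroblasts, and Tnc had 0.41 with neutrophils and 0.17 with fibroblasts. Fstl1 had the opposite order, with 0.29 for fibroblasts and 0.14 for monocytes. Postn was in between (0.20 and 0.24), and Lox, Vcan and Cthrc1 had no correlation above 0.20 with any of these lists. All 10 genes were negatively correlated with the cardiomyocyte sum in I/R, from -0.12 for Cthrc1 to -0.58 for Fn1. So was the reference Ankrd1 (-0.53 in I/R and -0.54 in SBP). In I/R Ankrd1 correlated at 0.31 with monocytes, 0.35 with macrophages, 0.36 with neutrophils and 0.18 with fibroblasts. A correlation with Ankrd1, or a higher level in Ankrd1-high spots, is therefore not read as placement with cardiomyocytes. Counts thinned to a fixed depth are shares, so a spot with fewer cardiomyocyte UMIs has more of the other genes together. No background over all genes was taken for the marker sums, so the values with leukocyte lists are not shown to be particular to leukocytes.

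**Figure D4:**
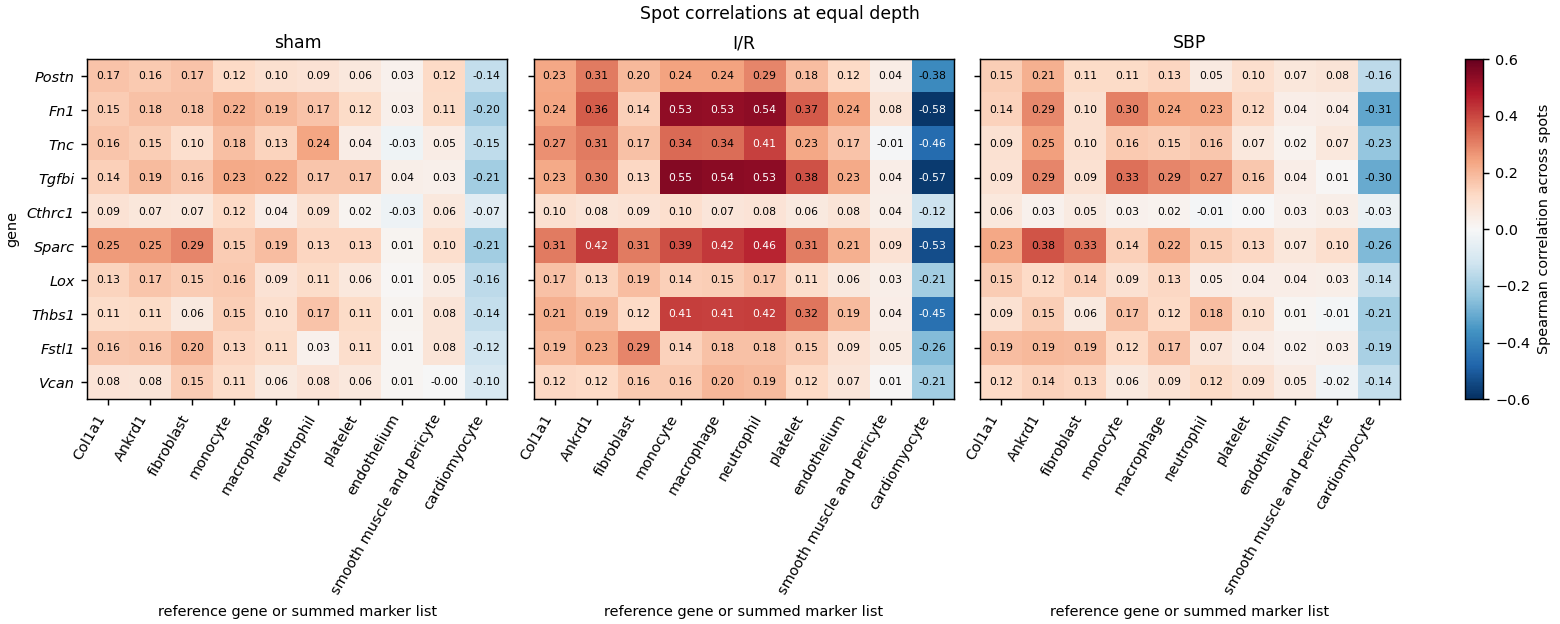
Spearman correlation across thinned spots (colour, with each value printed) of the 10 genes (rows) with Col1a1, Ankrd1 and 8 summed marker lists (columns) in sham, I/R and SBP. In I/R Fn1 and Tgfbi reach 0.53 to 0.55 with the monocyte list and 0.13 to 0.14 with the fibroblast list, and in sham no value for these 2 genes exceeds 0.23.

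Spots were then divided by these sums, a step chosen after the correlations were seen. A spot was fibroblast-high at 17 or more summed fibroblast UMIs and monocyte-high at 2 or more monocyte UMIs, again set so that no more than 5% of sham spots met each. Spots that were fibroblast-high alone made up 4.04%, 2.71% and 2.69% of the thinned spots of sham, I/R and SBP, and those that were monocyte-high alone 1.86%, 15.1% and 6.30%. In I/R 3 of the 10 genes were higher in monocyte-high spots, 6 in fibroblast-high spots and Tnc in neither. The share over all genes was not taken for this ratio, so the count describes the 10 genes and no excess is read from it. Tgfbi stood at 164 CPM in the 51 fibroblast-high spots and 603 CPM in the 283 monocyte-high spots, a log2 ratio of 1.88 (1.64 to 2.13). Fn1 stood at 256 and 857 CPM (1.74, 1.55 to 1.94) and Thbs1 at 80.4 and 142 CPM (0.82, 0.47 to 1.19).

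In the other direction Postn stood at 337 CPM in fibroblast-high and 113 CPM in monocyte-high spots of I/R, a log2 ratio of -1.58 (-1.79 to -1.37). Lox stood at 84.8 and 23.2 CPM (-1.87, -2.32 to -1.41), Fstl1 at 280 and 95.4 CPM (-1.56, -1.79 to -1.32) and Cthrc1 at 18.5 and 5.61 CPM (-1.72, -2.70 to -0.72). Sparc (-0.51) and Vcan (-0.74) leaned the same way by less. Tnc was level, with 124 and 130 CPM (0.07, -0.23 to 0.37).

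In the other sections fewer genes had an interval apart from 0. In SBP the log2 ratio of monocyte-high over fibroblast-high spots was 2.22 (1.81 to 2.65) for Tgfbi and 1.63 (1.33 to 1.94) for Fn1. It was -1.26 (-1.73 to -0.79) for Postn, -1.26 (-2.24 to -0.29) for Lox and -0.98 (-1.42 to -0.55) for Fstl1. Sparc (-0.80, -0.96 to -0.65) and Vcan (-0.67, -1.31 to -0.03) also had intervals below 0 in SBP. For Thbs1 (0.48, -0.18 to 1.19), Tnc (0.62, -0.10 to 1.39) and Cthrc1 (2 and 3 UMIs) the interval in SBP included 0. In sham Tgfbi (2.04), Fn1 (1.68) and Thbs1 (1.80) were again higher in monocyte-high spots, and Fstl1 (-1.22) and Sparc (-0.30) in fibroblast-high ones, while the intervals of the other 5 genes included 0, for Postn (-1.04 to 0.12), Lox (-1.18 to 0.51), Vcan (-1.71 to 0.27) and Cthrc1 (-2.87 to 1.59), and likewise for Tnc. Monocyte-high spots of I/R also exceeded those high for neither list for all 10 genes, by a log2 ratio of 0.82 for Fstl1 up to 3.60 for Tgfbi. So did the references Col1a1 (0.77, 0.65 to 0.89) and Ankrd1 (0.64, 0.60 to 0.67), and the interval of Fstl1 (0.65 to 0.99) overlaps that of Col1a1. The share of all genes that did so was not taken here either, so no excess is read from the count.

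**Figure D5:**
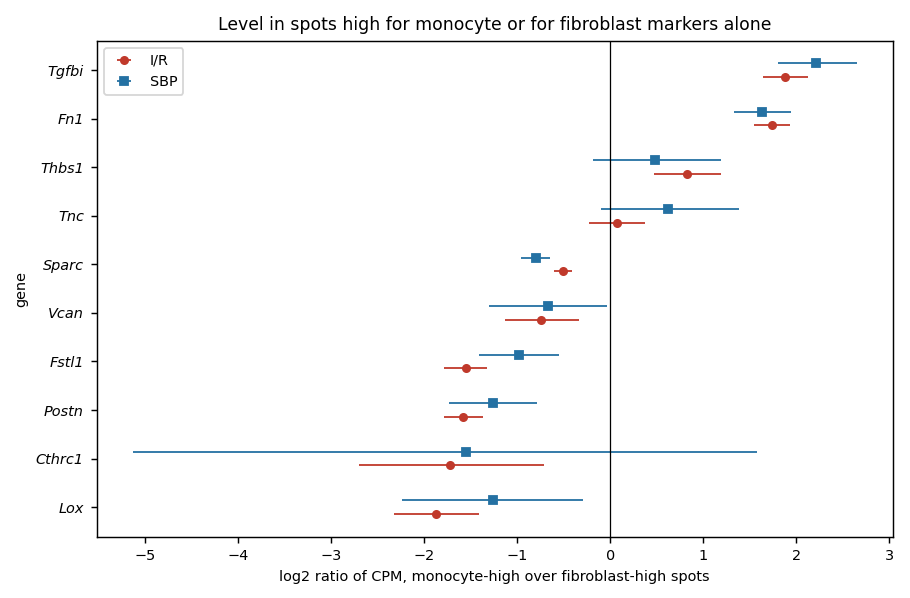
Log2 ratio of CPM in monocyte-high over fibroblast-high spots (horizontal axis) for the 10 genes (vertical axis), with circles for I/R, squares for SBP and lines for the 95% counting interval. Tgfbi and Fn1 lie to the right of 0 in both sections, from 1.63 to 2.22, and Postn, Lox and Fstl1 to the left, from -0.98 to -1.87. Sparc and Vcan also lie to the left in both sections, from -0.51 to -0.80.

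Differences between sections were also present inside a class. In fibroblast-high spots Postn stood at 96.0, 337 and 126 CPM in the order sham, I/R, SBP, so that I/R exceeded sham by a log2 ratio of 1.81 (1.50 to 2.13). Over the 10 genes, all were higher in I/R than in sham within fibroblast-high spots, 9 of them with an interval above 0 against 24.9% of all genes, and all were lower in SBP than in I/R, 9 with an interval below 0 against 17.1%. The medians there were 1.17 and -1.09, beside 0.21 and -0.10 over all genes. Col1a1, which is not among the summed markers, also differed in these spots, at 641, 875 and 464 CPM in sham, I/R and SBP. The class was thus not alike between sections in this fibroblast reference, and the values are not a comparison at equal fibroblast content. In monocyte-high spots Fn1 had a log2 ratio of 1.21 (0.99 to 1.44) for I/R against sham and of -0.88 (-1.01 to -0.76) for SBP against I/R, where all 10 genes were lower in SBP, 8 of them with an interval below 0 against 31.3% of all genes. In these spots 8 of the 10 genes were higher in I/R than in sham, 7 with an interval above 0 against 18.8% of all genes, and the exceptions, Lox (-0.61, -1.37 to 0.23) and Cthrc1 (-0.15, -1.89 to 2.23), had intervals that included 0. The medians in monocyte-high spots were 0.83 and -0.84, beside 0.33 and -0.36 over all genes. Spots high for neither list also differed between sections, with medians over the 10 genes of 0.81 (I/R against sham) and -0.85 (SBP against I/R), beside 0.08 and -0.04 over all genes. There 9 genes had an interval above 0 and 10 one below 0 in these comparisons, against 28.8% and 19.2% of all genes. These spots lay below the 2 limits but were not matched for any cell type. Macrophage, neutrophil and platelet sums were not used to divide spots. The part of cell content in these differences was not tested.

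Set against the fibroblast markers of the same section instead of all UMIs, all 10 genes were highest in I/R. This measure takes the log2 ratio of the marker sum off that of every gene alike. The sum's own ratio was -0.08 in I/R relative to sham and -0.27 in SBP relative to I/R. All 10 CPM ratios of SBP to I/R lay below -0.27, with Sparc nearest at -0.43. The order of the sections thus followed from the CPM ratios and is no separate evidence. The share over all genes was not taken by this measure. For each 1000 fibroblast marker UMIs there were 28.8, 72.7 and 31.6 UMIs of Postn in the sham, I/R and SBP sections. Tnc had 6.64, 56.5 and 20.6, and Sparc 398, 576 and 515. By this measure I/R exceeded sham by log2 ratios of 0.40 (Fstl1) to 3.09 (Tnc), and for SBP against I/R the log2 ratios ran from -0.16 (Sparc) to -1.52 (Thbs1). The 4 genes that were lower in SBP than in sham by CPM had intervals that included 0 here. They were Postn at 0.13 (-0.03 to 0.30), Fstl1 at 0.04 (-0.08 to 0.16), Lox at -0.17 (-0.48 to 0.13) and Cthrc1 at -0.50 (-1.30 to 0.26). The marker sum was itself lower in SBP than in sham (-0.35), with single markers from -0.71 (Col3a1) to 0.69 (Pdgfra). This measure thus depends on which markers are summed.

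The genes also varied in how closely they lay with each other. Among their 45 pairs in I/R the median spot correlation was 0.19, and 20 pairs exceeded 0.2. Fn1 and Tgfbi were the closest pair (0.56), followed by Tgfbi with Thbs1 (0.44), Fn1 with Sparc (0.43) and Fn1 with Thbs1 (0.42). In SBP the median was 0.10 and 2 pairs exceeded 0.2, of which Fn1 with Tgfbi was the closest at 0.29, and in sham the median was 0.12 with no pair above 0.2. Levels and depths of the genes differ between sections and sparse counts lower a correlation, so that these medians are descriptions.

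Among 2574 genes with at least 1000 UMIs in I/R, Timp1, an inhibitor of matrix metalloproteinases, had the highest spot correlation with Postn (0.41), Tnc (0.49) and Lox (0.25). In SBP these values were 0.20, 0.25 and 0.15. Actb, cytoplasmic actin, was closest to Fn1 (0.61) and Tgfbi (0.61), and Spp1 (osteopontin, a secreted protein of macrophages and other cells) came second for Tgfbi at 0.59. For Sparc and Vcan the closest gene was Eef1a1, a translation factor (0.59 and 0.26), for Thbs1 Rpsa, a ribosomal protein gene (0.46), and for Fstl1 S100a6, a calcium-binding protein (0.31). Genes of translation also came close behind Timp1, with the ribosomal protein genes Rpl41 and Rplp1 at 0.40 each for Postn. Eef1a1 was at 0.47 for Tnc and Rplp1 at 0.22 for Lox, and Rplp1 was second for Fn1 (0.60). No link particular to Timp1 is therefore read from these values. Cthrc1 had no correlation above 0.15, which at 27 thinned UMIs is no pattern.

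Other genes of the pathway, in lists that were also chosen with results of these data known, were read against the same shares of all genes, 8.38% at least 2-fold higher in I/R than in sham and 4.53% at least 2-fold lower in SBP than in I/R. Of 17 genes of fibroblast activation, 11 were at least 2-fold higher in I/R than in sham and none 2-fold lower, with a median log2 ratio of 1.51. Ccn2, a matricellular protein (2.49), Timp1 (2.27) and Spp1 (2.10) were among the highest. Acta2 and Fap were singled out after their values were seen. Acta2, the smooth muscle actin of vessels and myofibroblasts, went the other way, with 254, 168 and 83.0 CPM in sham, I/R and SBP (I/R over sham -0.60, -0.65 to -0.55), and Fap, a protease of activated fibroblasts, did not differ beyond counting error at -0.04 (-0.54 to 0.46). In SBP 10 of the 17 were at least 2-fold lower than in I/R and none higher, among them Ccn2 (-1.89) and Spp1 (-1.63), while Timp1 stood at -0.81.

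Of 13 receptor genes with at least 50 UMIs, 3 were at least 2-fold higher in I/R, namely Cd44, a receptor for hyaluronan and osteopontin, at 2.09 (1.91 to 2.27), Itga5, the integrin chain that binds fibronectin, at 1.25 (1.11 to 1.38) and Itgb3 at 1.12 (0.50 to 1.76). The median of the receptors was 0.31, near that of all genes. Among 14 genes of the same families, Fstl3 (2.50), Thbs4 (1.43) and Loxl3 (1.08) were at least 2-fold higher and Comp, a thrombospondin, lower (-1.24) on 77 UMIs in all, which was named after its value was seen. In SBP Thbs4 stood close to I/R (0.27, -0.09 to 0.62), and of 15 family genes 1, Loxl3 (-1.25), was at least 2-fold lower than in I/R. Against the direction of the 10 matrix genes, 3 were at least 2-fold higher in SBP than in I/R, beside 41 of the 12151 genes compared. The 3 were Smoc1, a relative of Sparc (1.23, 0.75 to 1.72), and, each on fewer than 100 UMIs and named after their values were seen, Spock2 (1.55) and Comp (1.18). Of 19 genes of matrix processing 4 were at least 2-fold higher in I/R, namely Plod3, a lysyl hydroxylase of collagen, at 1.05 (0.89 to 1.20) and, each on fewer than 100 UMIs and named after their values were seen, the hyaluronan synthases Has1 (3.66) and Has2 (1.67) and the versican-cleaving protease Adamts4 (2.56).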

How the data were processed

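The analysis used 3 Visium libraries, 1 section per condition (sham, I/R, SBP), with conditions taken from the labels, and the single-nucleus libraries were not analysed here. The authors deposited raw counts of UMIs per gene and spot made with Space Ranger (1.3.0 in the file headers, mm10 per the labels), without normalization. The paper names a human reference and another version, while the files list mouse genes, of which 32235 were found in GENCODE M21 and 50 were not. The 10 genes, the marker lists and the pathway lists were chosen with earlier results of these data known.

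Each gene's UMIs were added up over spots with at least 200 detected genes and scaled to the section's total (CPM). Log2 ratios were set against all genes whose UMIs in both sections together reached 50. At the 95% level, intervals came from the exact Poisson distribution (sums), the Clopper-Pearson method (shares) and the binomial distribution given the summed UMIs (ratios), and cover counting error only. Total counts of 21631280 to 30238530 UMIs leave each level as precise as its own UMI sum, from 22 (Cthrc1, SBP) to 15885 (Sparc, I/R). For shares, correlations and classes of spots, 6500 UMIs were drawn without replacement from every spot that held as many. Levels in classes used the unthinned UMIs of these spots. Spots were neither clustered nor given cell types, no doublet caller was used, and no p-value is given.

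Genes named beside the 10 were Col1a1 and Ankrd1, for each member up to 3 genes of at least 1000 UMIs with the highest spot correlation in I/R, and from each pathway list up to 4 genes past 2-fold with at least 100 UMIs, with the exceptions stated and 1 gene that is not reported here. The calculations were tested on simulated data. Alternatives covered the denominator, TMM (edgeR 4.0.16, R 4.3.3) and median-of-ratios scaling, equal weight of spots, filters on spots and genes, spots that hold most of a gene, the thinning and the measure of correlation. The software was Python 3.11.15, scipy 1.17.1, numpy 2.4.6, matplotlib 3.10.9 and pandas 2.3.3.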

Additional observations from a re-analysis of the deposited data

How the results depend on the processing

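No paired analysis was possible because 1 section stands for each condition, which also leaves no replicate to omit. Every gene kept the direction of its ratio both between I/R and sham and between SBP and I/R under the 9 alternatives of scaling, spot weight and filters that gave it a value. Cthrc1 had no value with a minimum of 200 UMIs and, in the SBP comparisons, none after its richest 1% of spots were removed. The median of the 10 genes ranged from 0.85 to 1.50, from -1.38 to -1.09 and from 0.08 to 0.34 in the 3 comparisons. TMM scaling shifted all genes by -0.23 (I/R over sham), 0.16 (SBP over I/R) and -0.07 (SBP over sham). The ratio of Sparc for SBP over sham changed sign between alternatives (-0.05 to 0.09), within its interval around 0. The counts of genes past 2-fold and of genes with the highest share in I/R stayed within 1.5 times under every alternative run. The count of genes closer to Col1a1 than to Ankrd1 did not. In sham it went from 4 to 7 with thinning to 1000 UMIs, to 7 with a second draw and to 8 with Pearson correlation. In I/R it went from 4 to 2 with thinning of nuclear genes alone, to 2 with a second draw and to 8 with Pearson correlation, and in SBP from 2 to 0 and 4 with thinning of nuclear genes and Pearson correlation. The cause was not tested. With the Col1a1 and Ankrd1 classes set at 10% of sham spots, 20 ratios to spots high for neither moved beyond their interval and 36 did not, as for Tgfbi in Ankrd1-high spots of I/R, from 0.25 to 0.41. Of these, 1 changed sign, Fn1 in SBP spots high for both genes, of which there were 2. A 10% limit for the marker classes, an alternative chosen after seeing the data, lowered the fibroblast limit from 17 to 13 UMIs but left the monocyte limit at 2, so it bears on the fibroblast class alone. The 20 ratios of monocyte-high over fibroblast-high spots kept their sign, and 8 of the 10 in I/R moved beyond their interval, such as Thbs1 from 0.82 to 1.49, Lox from -1.87 to -1.29, Postn from -1.58 to -1.09 and Vcan from -0.74 to -0.27. Depth limits Cthrc1 most, since it has 22 UMIs in SBP.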
